A study of Mus musculus with 12 samples.

Results

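The p53 target genes examined here are 34 mouse genes, taken from the deposited count table by gene name: Trp53, which encodes p53, its direct regulators, and genes that p53 is known to switch on. All 34 names were found among the 56748 genes of the table, and all 34 passed the filter on low counts, as part of the 16947 genes tested. The libraries came from kidneys of C57bl/6-wt mice that had all been given cisplatin, a platinum drug that crosslinks DNA and injures the kidney tubule. The AKI group received cisplatin alone, the UC group also received primary mesenchymal stem cells (MSC) obtained from umbilical cord, and the pFUS_UC group received both pulsed-focused ultrasound and these cells, with 4 samples per group. No uninjured kidney and no group with ultrasound alone were analysed here, so the values show differences among cisplatin-treated kidneys and not the response to cisplatin itself. The labels name neither the time of sampling, the cell dose, the ultrasound setting nor the sex, and they do not state that the samples of a group came from separate animals. The p-values therefore measure the spread between these samples, which may be technical.

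p53 is a transcription factor that is kept low in unstressed cells by the ubiquitin ligase Mdm2 and becomes stable after DNA damage. It then binds the p53 response element, a pair of 10-base copies of one pattern, and raises genes for cell cycle arrest, apoptosis, DNA repair and metabolic adjustment, and also Mdm2 itself, which closes a negative feedback loop. Because p53 is controlled mainly at the level of the protein, the mRNA of its targets is the usual readout of its activity, while the Trp53 mRNA is not. In cisplatin-injured kidney, p53 and its targets in tubular cells have been studied as mediators of tubular cell death and of arrest.

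The promoter sequences of the targets were read from the RefSeq table of the build GRCm38.p6, which gives 250 bases before and 50 bases after each start; 28 of the 34 members had an entry, and Pmaip1, Tnfrsf10b, Zmat3, Rrm2b, Perp and Trp53inp1 had none. The 10-base p53 site was searched without mismatch; since the pattern is its own reverse complement, one search covers both strands. It was present for 12 of the 28 members (42.9%), against 9.55% of the 27025 genes in the table. These 12 were Aen, Bax, Ccng1, Cdkn1a, Ckap2, Ddit4l, Ei24, Gadd45a, Mdm2, Ppm1d, Sesn1 and Trp53. The full 20-base element without a spacer, with at most 1 mismatch, was found for 2 members, Cdkn1a and Ccng1, and in 0.0883% of the 32851 promoters; with at most 2 mismatches Ckap2 was added, against 0.798% of promoters. The 3 sequences below show these elements, written 5′ to 3′ along the gene, with the 20-base element in capitals and 20 bases on either side. The Cdkn1a stretch is chr17:29090908-29090967 on the plus strand, with the element from -51 to -32 relative to one start of this gene. The window of another Cdkn1a start, chr17:29093519-29093818, held 0 matches to the 10-base site. The Ccng1 stretch is chr11:40755442-40755501 on the minus strand, with the element from -195 to -176. The Ckap2 stretch is chr8:22185983-22186042 on the minus strand, with the element from -203 to -184.
Cdkn1a: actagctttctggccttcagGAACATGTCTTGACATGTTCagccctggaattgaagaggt
Ccng1: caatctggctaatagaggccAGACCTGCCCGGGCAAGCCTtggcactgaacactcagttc
Ckap2: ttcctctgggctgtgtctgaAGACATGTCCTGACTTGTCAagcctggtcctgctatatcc

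A further 5 sequences show members with a single 10-base site, in capitals with 20 bases on either side; they are given because each of these genes recurs in the comparisons that follow. They are Aen (chr7:78895917-78895966, plus strand, site from -121), Bax (chr7:45467070-45467119, minus strand, site from -201), Gadd45a (chr6:67037418-67037467, minus strand, site from -40), Ppm1d (chr11:85311102-85311151, plus strand, site from -132) and Mdm2 (chr10:117710915-117710964, minus strand, site from -186). The same Aen site also lies in the window of another Aen start, beginning at 11 after that start.
Aen: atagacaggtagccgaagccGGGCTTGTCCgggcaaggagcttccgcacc
Bax: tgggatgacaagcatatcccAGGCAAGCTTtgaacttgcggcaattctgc
Gadd45a: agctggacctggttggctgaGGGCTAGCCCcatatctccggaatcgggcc
Ppm1d: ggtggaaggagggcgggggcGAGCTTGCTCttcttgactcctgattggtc
Mdm2: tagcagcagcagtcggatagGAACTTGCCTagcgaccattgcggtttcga
A match describes the letters of the sequence and is not a measured binding site. The absence of a match says only that these letters are not in this window, which leaves out introns and more distant elements.

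Library totals were 17.3 to 23.5 M (mega) counts for AKI, 18.4 to 21.3 M for UC and 18.5 to 25.2 M for pFUS_UC, so that 3 counts, the limit that a count of 0 allows, corresponded to 0.119 to 0.173 CPM. CPM is a gene's count per 1 M counts of its library; for the values of genes the library size was further scaled by TMM, which corrects for differences in composition. The AKI libraries stood apart from the other 8 in composition. Transcripts of the mitochondrial genome took 2.87% to 7.12% of the AKI counts, while the range for UC was 8.57% to 18.6% and that for pFUS_UC 7.38% to 15.3% (2-sided exact permutation test, p = 0.0286 for each against AKI, the smallest that 4 against 4 samples allow; 0.0429 after adjustment over 6 tests). Podocyte markers summed to 668 to 1022 CPM in AKI libraries, while UC held 116 to 249 CPM and pFUS_UC 192 to 301 CPM; proximal tubule markers summed to 10911 to 16233 CPM, 7578 to 11010 CPM and 10355 to 11805 CPM in the same order. The sample codes of the AKI group also have another form than those of the other 8 samples, so that a difference in handling and the treatment cannot be told apart in either comparison with AKI. In bulk kidney, fewer cells of a type and less RNA per cell cannot be told apart either.

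The members differed in level by over 2 orders of magnitude. Expressed per gene length, as the deposited FPKM, the highest were Dcxr, an enzyme of carbonyl and xylulose reduction, with 291 ± 31.1 in AKI (mean ± SD, n = 4), Ccng1, the cyclin G1 gene, with 133 ± 69.9, and Gdf15, a secreted stress cytokine, with 76.9 ± 40.6. Next came Sesn2 (48.5 ± 7.33), Perp (44.7 ± 9.31), Phlda3 (44.4 ± 22.3) and Cdkn1a (40.8 ± 23.6), which do not differ from one another beyond their spread. Trp53 itself was at 9.86 ± 0.758. The lowest were Ckap2 (1.32 ± 0.409), Eda2r (1.51 ± 1.08) and Pidd1 (1.55 ± 0.406).

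**Figure D1:**
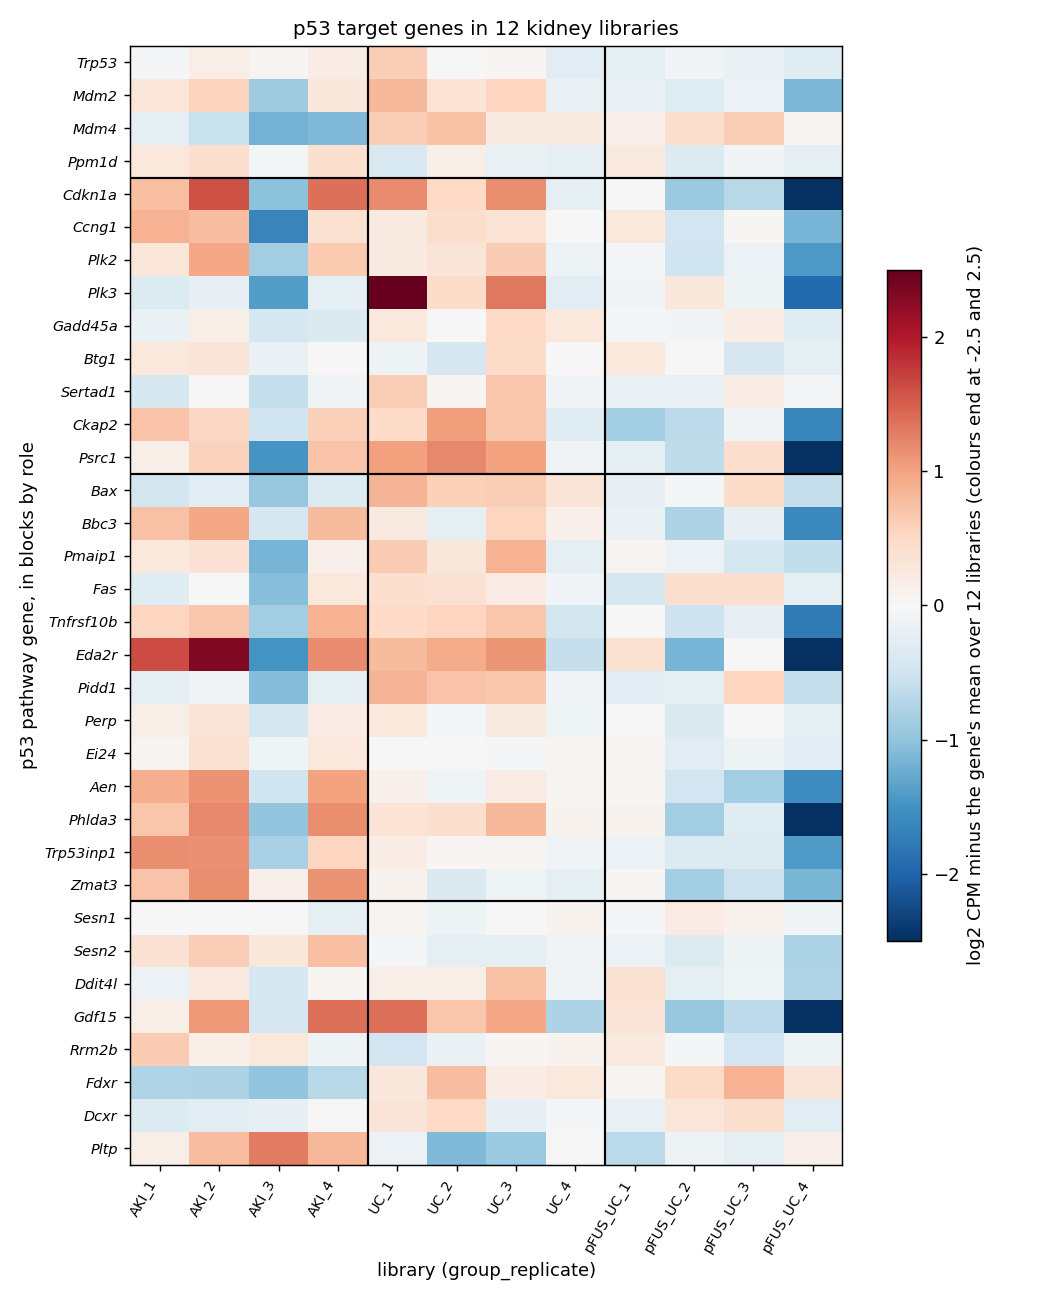
Each of the 34 members (rows, grouped by role) in each of the 12 libraries (columns), as the log2 difference of its TMM-scaled CPM from its mean over all libraries. AKI replicate 3 and pFUS_UC replicate 4 are low for most members of the arrest and apoptosis groups, while Mdm4, Fdxr and Bax are low in the 4 AKI libraries.

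The spread between libraries of one group was wide for these genes, and the same libraries were often the lowest. The median coefficient of variation of the members was 31.5% in AKI, against 18% over all tested genes, 22.1% against 18.5% in UC, and 29.9% against 16.3% in pFUS_UC. AKI replicate 3 was the lowest of its group for 29 of the 34 members (85.3%, against 28.5% of all tested genes). pFUS_UC replicate 4 was the lowest of its group for 26 members (76.5%, against 23.3%) and UC replicate 4 for 21 members (61.8%, against 26.2%). AKI replicate 2 was the highest of its group for 19 members (55.9%, against 21.4% of all tested genes) and pFUS_UC replicate 1 for 18 (52.9%, against 28.97%). The CPM of the 34 members summed to 2543, 2930, 1454 and 2711 in AKI replicates 1 to 4, to 2857, 2583, 2605 and 2016 in UC, and to 2126, 1856, 2153 and 1296 in pFUS_UC. The lowest AKI library thus lay below every UC library and within the range of pFUS_UC. The size of the spread depended on the gene: Sesn1, whose protein restrains mTORC1, had a coefficient of variation of 7.90% in AKI, and Trp53 one of 6.84%, whereas Eda2r, a death-domain receptor of the TNF receptor family, reached 71.4% in AKI and 81.7% in pFUS_UC.

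**Figure D2:**
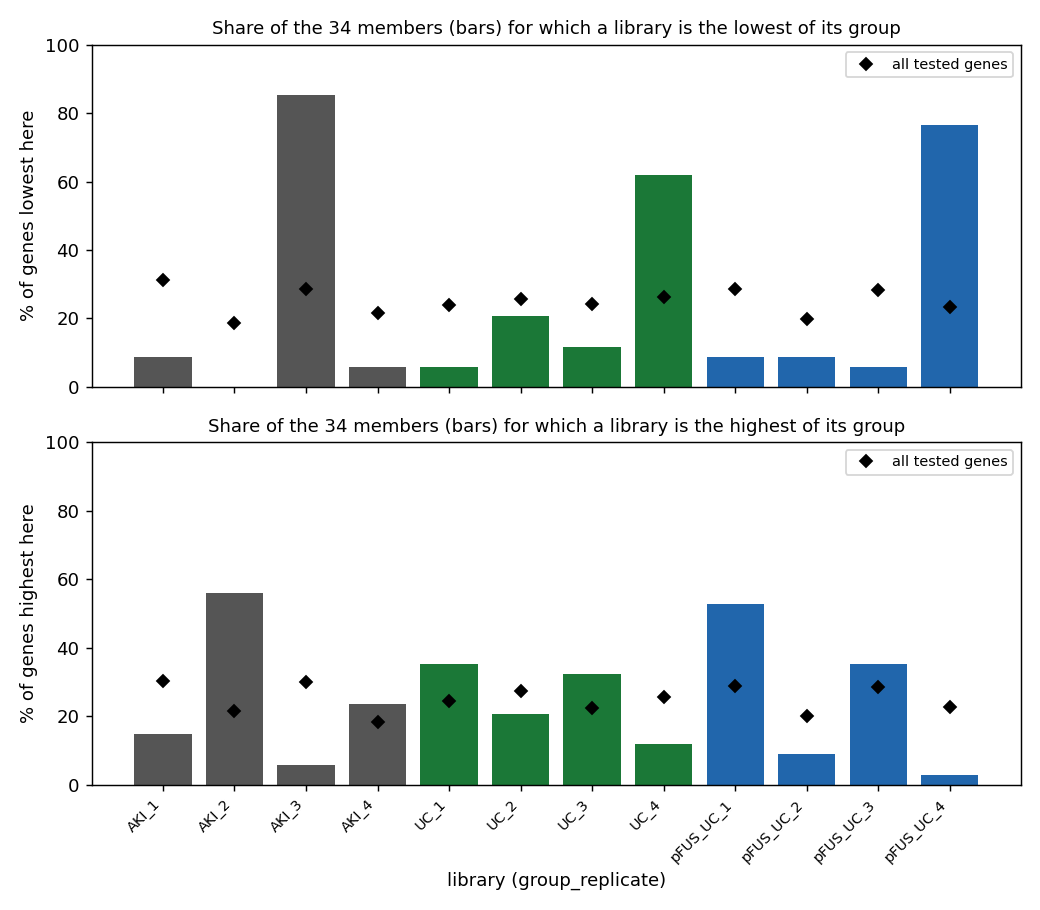
For each of the 12 libraries, the share of genes (percent) for which it was the lowest of the 4 libraries of its group, for the 34 members (bars) in the upper panel. AKI replicate 3 (85.3% of members), pFUS_UC replicate 4 (76.5%) and UC replicate 4 (61.8%) stand above the 23.3% to 28.5% that the same libraries reach over all tested genes (diamonds). The lower panel gives the share for which a library was the highest, led by AKI replicate 2 and pFUS_UC replicate 1.

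Markers of the injured tubule were set beside these libraries. Havcr1, the gene of kidney injury molecule 1, was at 20.2, 88.7, 84.8 and 98.1 CPM in AKI replicates 1 to 4, at 147, 44.8, 214 and 96.9 CPM in UC and at 34.5, 17.6, 73.5 and 1.92 CPM in pFUS_UC. Krt20, a keratin of injured tubules, was at 10.3, 20.2, 1.80 and 17.02 CPM in AKI replicates 1 to 4, at 49.5, 6.75, 35.05 and 6.69 CPM in UC and at 11.5, 4.63, 3.81 and 2.56 CPM in pFUS_UC. Lcn2, the gene of the injury protein NGAL, was at 14.6, 75.04, 17.7 and 36.8 CPM in AKI replicates 1 to 4, at 79.5, 18.1, 208 and 47.1 CPM in UC and at 38.4, 40.2, 32.2 and 7.73 CPM in pFUS_UC. In AKI replicate 3, Krt20 was the lowest of its group, Lcn2 lay between AKI replicates 1 and 4, and Havcr1 lay close to AKI replicates 2 and 4. pFUS_UC replicate 4 was the lowest of its group for Havcr1, Krt20 and Lcn2, and also for Sox9 and Vcam1, but not for Clu. All 6 injury markers summed to 270, 742, 364 and 532 CPM in AKI replicates 1 to 4, to 875, 370.3, 725 and 516 CPM for UC and to 569, 366, 418 and 326 CPM for pFUS_UC. The proximal tubule markers summed to 16233 CPM in AKI replicate 3 and to 11805 CPM in pFUS_UC replicate 4, the highest of each group. The part that tubular injury or tubular content has in the low p53 target values of these libraries was not tested.

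Of the regulators, Trp53 (chr11:69471185-69482699 on GRCm39, plus strand) was at 36.2, 41.4, 38.4 and 42.00 CPM in AKI replicates 1 to 4, at 56.00, 36.5, 37.9 and 30.7 CPM in UC and at 30.8, 35.2, 32.6 and 29.9 CPM in pFUS_UC. The UC range spans the AKI range, and all pFUS_UC libraries lie below all AKI libraries. The log2 fold change was 0.03 (SE 0.15, adjusted p = 0.895) in UC against AKI and -0.30 (SE 0.15, adjusted p = 0.127) in pFUS_UC against AKI, so neither passed the threshold of 0.05 after Benjamini-Hochberg adjustment over all tested genes in edgeR's quasi-likelihood test; fitting only the AKI and pFUS_UC groups gave an adjusted p of 0.0366. Mdm2 was at 84.5, 101, 36.6 and 82.8 CPM in AKI replicates 1 to 4, at 119, 85.8, 99.2 and 60.8 CPM in UC and at 60.1, 55.1, 61.5 and 31.2 CPM in pFUS_UC. Its groups overlap, with AKI replicate 3 and pFUS_UC replicate 4 lowest, and the log2 fold changes of 0.26 (SE 0.29) in UC and -0.55 (SE 0.29, adjusted p = 0.143) in pFUS_UC against AKI did not pass; without AKI replicate 3 the latter was -0.78 (adjusted p = 0.0220).

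Mdm4, which encodes the Mdm2 relative that binds and silences p53, was the regulator with the clearest difference. Mdm4 was at 55.9, 44.5, 28.9 and 30.2 CPM in AKI replicates 1 to 4, at 100.48, 109, 76.4 and 76.1 CPM in UC and at 70.8, 88.7, 100.36 and 68.3 CPM in pFUS_UC. Every library of both cell-treated groups exceeds every AKI library. It was higher by a log2 fold change of 1.18 (SE 0.21, adjusted p = 0.000641) in UC and of 1.04 (SE 0.21, adjusted p = 0.00184) in pFUS_UC than in AKI. Ppm1d, the gene of the phosphatase Wip1 that switches off DNA damage signalling, was at 19.7, 22.1, 16.2 and 21.8 CPM in AKI replicates 1 to 4, at 12.6, 18.1, 14.4 and 13.9 CPM in UC and at 19.6, 13.01, 15.7 and 14.1 CPM in pFUS_UC. The UC range overlaps that of AKI through UC replicate 2. Ppm1d fell in UC, with a log2 fold change of -0.43 (SE 0.16, adjusted p = 0.0387), and missed the threshold in pFUS_UC (log2 fold change -0.35, SE 0.16, adjusted p = 0.0877); the UC call was lost without any 1 of AKI replicates 1, 2 or 4 or UC replicates 1, 3 or 4 (adjusted p up to 0.0996), and with the replicate block (adjusted p = 0.0665).

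**Figure D3:**
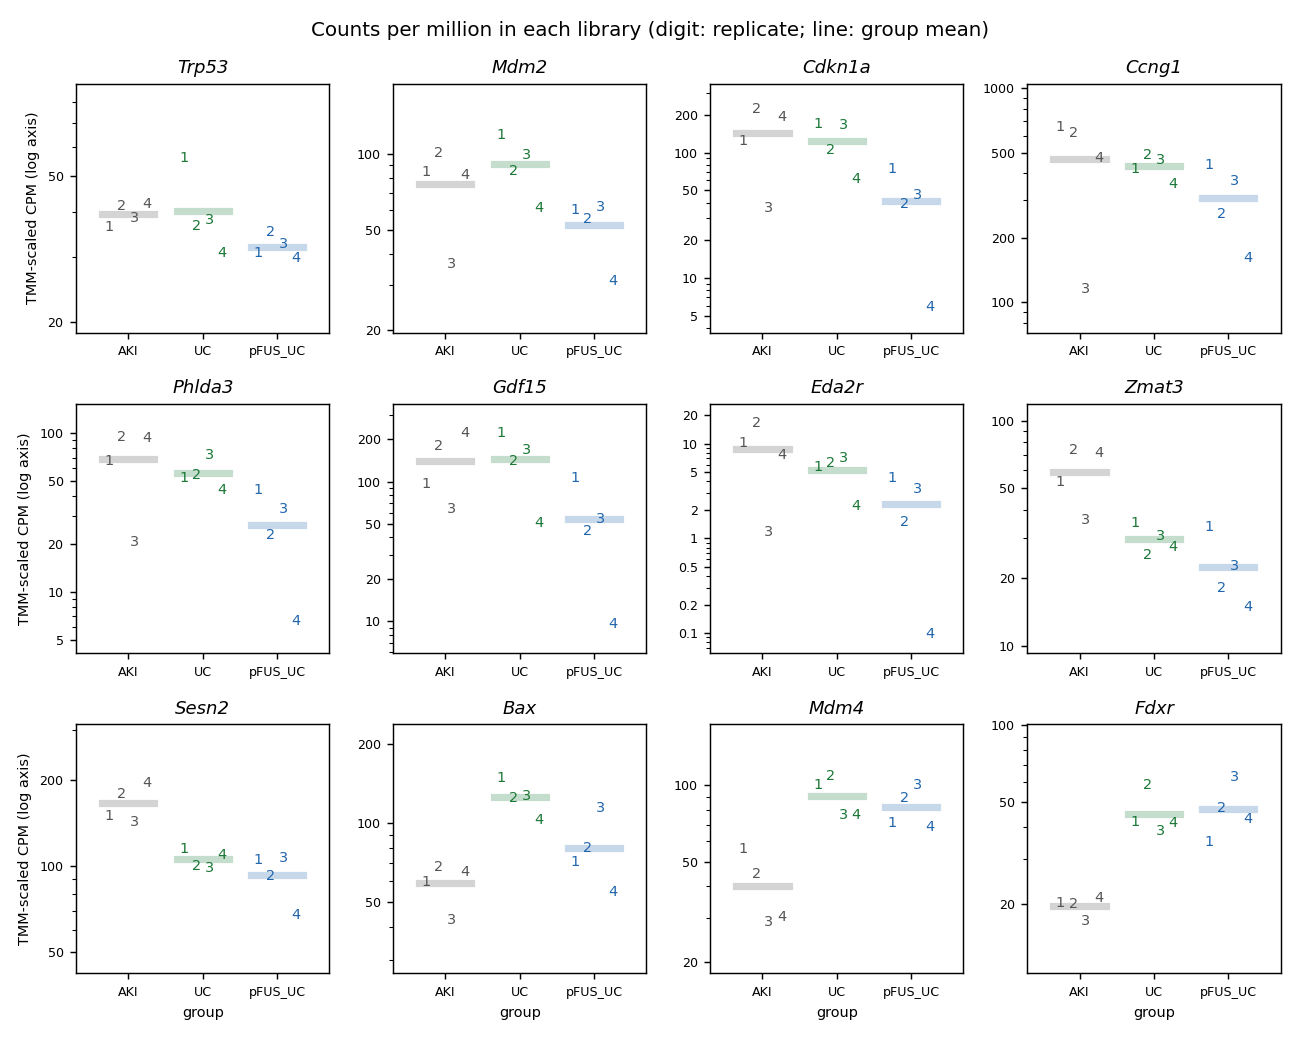
TMM-scaled CPM (log axis) of 12 members in each library; the digit is the replicate and the bar the group mean. For Cdkn1a, Phlda3 and Eda2r the digit 3 in AKI and the digit 4 in pFUS_UC lie far below the rest of their group, while for Mdm4 and Fdxr all AKI libraries lie below all others.

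Over all 34 members, UC differed from AKI in both directions: 7 were higher (Mdm4, Plk3, Gadd45a, Sertad1, Bax, Pidd1 and Fdxr) and 4 lower (Ppm1d, Zmat3, Sesn2 and Pltp). This is 32.4% of the members, against 48.4% of all tested genes called in this comparison, 24.1% higher and 24.3% lower. The median log2 fold change of the members was 0.01, beside 0.03 over all tested genes. CPM ranges did not overlap for 7 members, and for 41.7% of all tested genes. In pFUS_UC against AKI, 2 members were higher (Mdm4 and Fdxr) and 9 lower (Cdkn1a, Ckap2, Bbc3, Aen, Phlda3, Trp53inp1, Zmat3, Sesn2 and Pltp), again 32.4% of the members; of all tested genes 44.0% were called, 21.9% higher and 22.1% lower. The median was -0.35, beside 0.02 over all tested genes, and 10 of the 34 fold changes were positive. CPM ranges did not overlap for 6 members, against 40.8% of all tested genes. Both comparisons use the same AKI libraries, so their results are not independent: 5 members were called in the same direction in both (Mdm4 and Fdxr higher, Zmat3, Sesn2 and Pltp lower) and 17 in neither. Markers of other kidney cells also differed from AKI. Endothelial markers summed to 326 to 506 CPM in AKI, 68.8 to 164 CPM in UC and 113 to 168 CPM in pFUS_UC, with 6 of 6 called lower in UC and 5 of 6 in pFUS_UC. Fibroblast and pericyte markers summed to 289 to 719, 70.9 to 190 and 143 to 183 CPM, with 6 of 6 lower in both, as were the 6 podocyte markers. Other lists did not fall as a whole. Of 4 collecting duct markers, 2 were higher and 0 lower in UC, and 1 higher and 0 lower in pFUS_UC. Of 6 thick ascending limb and distal tubule markers, 2 were higher and 1 lower in UC, and 3 higher and 2 lower in pFUS_UC. The part of these cell types in the members' values was not tested.

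The number of members called lower in pFUS_UC depended on single libraries and changed most when AKI replicate 3 was left out. Without it, 17 members were lower than in AKI instead of 9, while 19.9% of all tested genes were. The 8 added without AKI replicate 3 were Mdm2, Ppm1d, Ccng1, Plk2, Tnfrsf10b, Eda2r, Perp and Ei24, with log2 values of -2.30 for Eda2r (adjusted p = 0.0184) and -0.93 for Ccng1 (adjusted p = 0.0171). In UC against AKI the same omission gave 5 higher and 6 lower, with Aen (-0.94) and Trp53inp1 (-0.92) now lower and Gadd45a and Sertad1 no longer past the threshold; of all tested genes 20.8% were higher and 21.8% lower in that fit. Leaving out pFUS_UC replicate 4, the other low library, left 7 members lower and 3 higher, beside 19.3% and 19.2% of all tested genes.

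**Figure D4:**
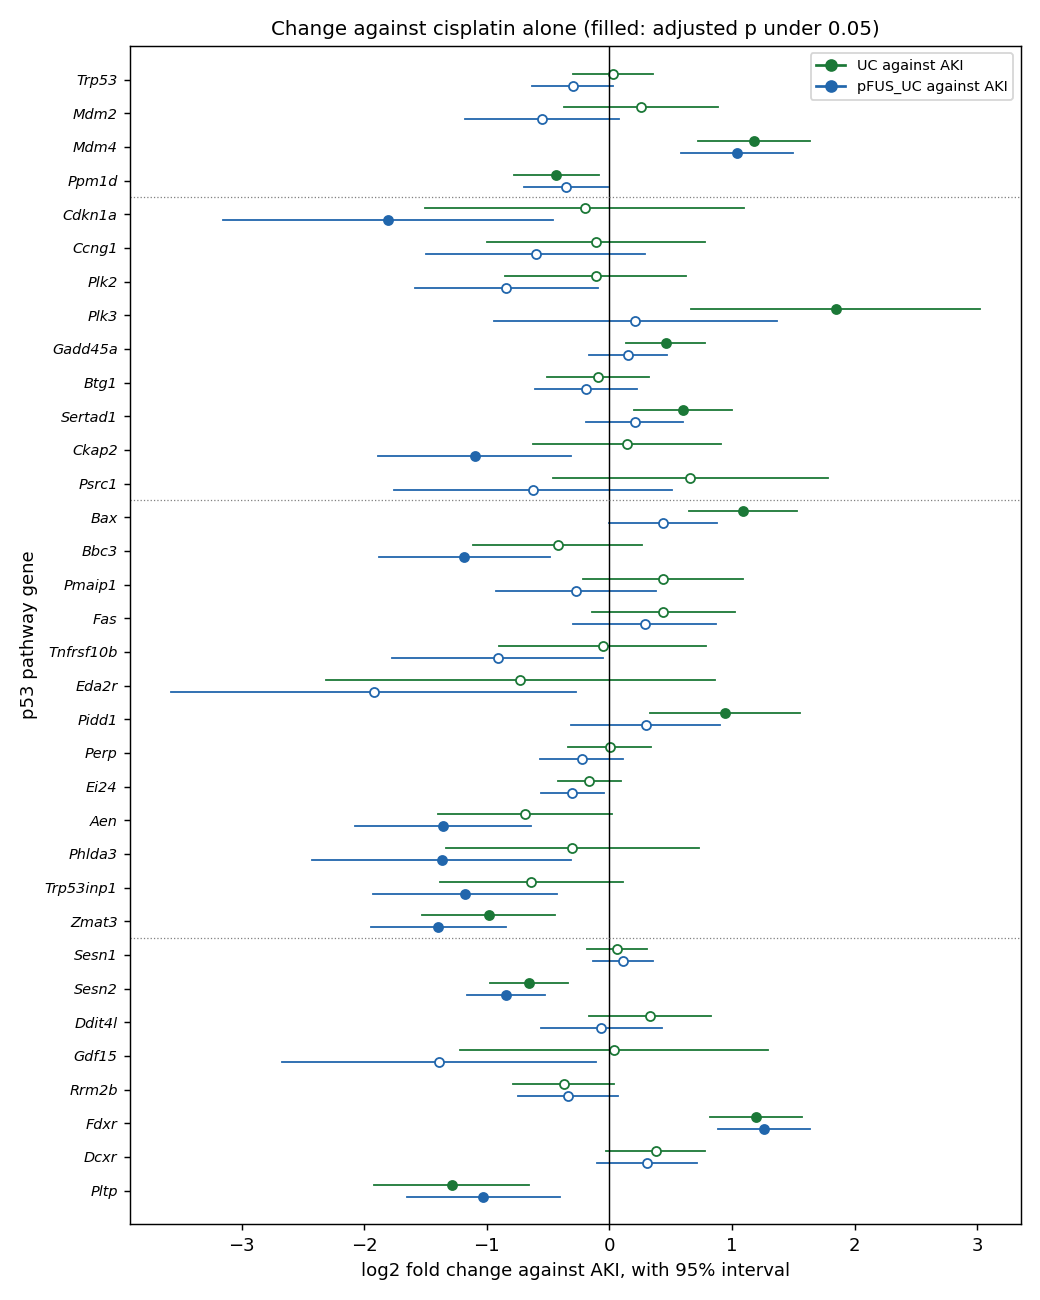
Log2 fold change of each member (points) with its 95% interval (bars) in UC against AKI and in pFUS_UC against AKI, from edgeR. Filled points have an adjusted p under 0.05. In UC against AKI the points scatter around 0 (median 0.01), and in pFUS_UC against AKI 10 of the 34 points lie above 0 (median -0.35).

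Among the 9 genes of cell cycle and growth arrest, 3 were higher in UC than in AKI (Plk3, Gadd45a and Sertad1) and none lower, while in pFUS_UC none was higher and 2 were lower (Cdkn1a and Ckap2). These are 33.3% and 22.2% of the group, against 48.4% and 44.0% of all tested genes in either direction. Of all tested genes 24.1% were called higher in UC and 22.1% lower in pFUS_UC. The group's median log2 fold change was 0.14 in UC and -0.60 in pFUS_UC. Cdkn1a (chr17:29309950-29319701 on GRCm39, plus strand) encodes p21, the inhibitor of cyclin-dependent kinases through which p53 halts the cell cycle. It was at 124, 223, 36.1 and 193 CPM in AKI replicates 1 to 4, at 168, 105, 166 and 62.02 CPM in UC and at 74.1, 38.9, 45.6 and 5.86 CPM in pFUS_UC. The UC libraries lie within the AKI range, pFUS_UC replicate 4 is the lowest of all 12, and AKI replicate 3 falls within the pFUS_UC range. Cdkn1a averaged 144 ± 82.9 CPM in AKI, 125 ± 51.3 CPM in UC and 41.1 ± 28.02 CPM in pFUS_UC (mean ± SD, n = 4). The log2 fold change was -0.20 (SE 0.61, adjusted p = 0.803) in UC and -1.80 (SE 0.63, adjusted p = 0.0317) in pFUS_UC against AKI. Omission of any 1 of 4 libraries (AKI replicates 2 and 4, pFUS_UC replicates 2 and 3) ended the pFUS_UC call, with adjusted p up to 0.0861, and the log2 fold change was -2.13 (adjusted p = 0.0124) without AKI replicate 3.

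Ckap2, the gene of a spindle microtubule protein, was near the low end of the members. Ckap2 was at 5.24, 4.57, 2.26 and 4.84 CPM in AKI replicates 1 to 4, at 4.42, 6.57, 5.11 and 2.60 CPM in UC and at 1.77, 2.04, 2.996 and 1.03 CPM in pFUS_UC. AKI replicate 3 and UC replicate 4 fall within the pFUS_UC range. Ckap2 fell in pFUS_UC against AKI (log2 fold change -1.10, SE 0.37, adjusted p = 0.0267); the call was lost in 6 of the 8 fits that left out 1 library of these groups (all but those without AKI replicate 3 and pFUS_UC replicate 3), with adjusted p up to 0.0704. In UC it stood at 0.14 (SE 0.36, adjusted p = 0.759).

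Plk3, a stress-responsive polo-like kinase, had the largest log2 fold change of the members in UC. Plk3 was at 21.7, 24.1, 10.5 and 23.7 CPM in AKI replicates 1 to 4, at 157, 38.2, 68.9 and 22.9 CPM in UC and at 26.5, 33.5, 25.3 and 7.19 CPM in pFUS_UC. UC replicate 1 is more than 2 times the next library, and UC replicate 4 lies within the AKI range. The log2 fold change against AKI was 1.84 (SE 0.55, adjusted p = 0.0137) in UC and 0.21 (SE 0.54, adjusted p = 0.769) in pFUS_UC; without UC replicate 1 that of UC was 1.12 (adjusted p = 0.0649). Gadd45a, a growth arrest gene induced by DNA damage, was at 27.7, 34.2, 22.7 and 24.2 CPM in AKI replicates 1 to 4, at 37.3, 30.9, 43.7 and 37.4 CPM in UC and at 30.5, 29.8, 35.2 and 25.3 CPM in pFUS_UC. Sertad1, whose product acts on CDK4 and E2F, was at 21.5, 28.5, 18.9 and 26.9 CPM in AKI replicates 1 to 4, at 43.5, 29.2, 45.2 and 27.1 CPM in UC and at 25.4, 24.9, 32.4 and 27.7 CPM in pFUS_UC. For both genes UC overlaps AKI, with UC replicate 3 highest. Gadd45a rose in UC by a log2 fold change of 0.46 (SE 0.15, adjusted p = 0.0215) and Sertad1 by 0.60 (SE 0.18, adjusted p = 0.0164). Both calls depended on single libraries (AKI replicate 3 and UC replicate 3 for both, AKI replicate 4 for Gadd45a, UC replicate 1 for Sertad1; adjusted p up to 0.0674) and on gene length: with each library's trend on gene length removed, the values were 0.14 (adjusted p = 0.462) and 0.17 (adjusted p = 0.463). Gene length was set against each library's log2 CPM minus the gene's mean over all 12 libraries, across tested protein-coding genes. The rank correlation lay between 0.157 and 0.377 for AKI libraries, between -0.209 and -0.130 for UC and between -0.244 and 0.0112 for pFUS_UC. These correlations are relative to the mean of all 12 libraries, so the groups are not independent in them.

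The other 4 genes of cell cycle and growth arrest did not pass against AKI. Ccng1, a p53-induced cyclin that feeds back on Mdm2, averaged 466 ± 247 CPM in AKI, 432 ± 56.5 CPM in UC and 307 ± 122 CPM in pFUS_UC, with AKI replicate 3 at 115 CPM beside 472 to 658 CPM in the other AKI libraries. Plk2, a further polo-like kinase, averaged 42.3 ± 19.1 CPM in AKI, 39.05 ± 8.39 CPM in UC and 23.6 ± 8.75 CPM in pFUS_UC, with a log2 fold change of -0.84 (SE 0.35, adjusted p = 0.0643) in pFUS_UC. Psrc1, a microtubule regulator, averaged 12.4 ± 6.16 CPM in AKI, 19.6 ± 6.50 CPM in UC and 8.03 ± 5.27 CPM in pFUS_UC, and pFUS_UC replicate 4 held 1.67 CPM. Btg1, an antiproliferative gene, averaged 108 ± 16.5 CPM in AKI, 101 ± 27.3 CPM in UC and 94.2 ± 19.5 CPM in pFUS_UC.

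Of the 13 genes of apoptosis and death receptors, 2 were higher (Bax and Pidd1) and 1 lower (Zmat3) in UC than in AKI, and in pFUS_UC none was higher and 5 were lower (Bbc3, Aen, Phlda3, Trp53inp1 and Zmat3). These are 23.1% and 38.5% of the group, against 48.4% and 44.0% of all tested genes in either direction. The 5 called in pFUS_UC were all lower, and 22.1% of all tested genes were called lower there. The medians were -0.16 and -0.91. Of the pro-apoptotic BCL2 family members, Bax was called in UC, Bbc3 in pFUS_UC and Pmaip1 in neither. Bax, which permeabilises the outer mitochondrial membrane, was at 59.8, 68.1, 42.7 and 65.03 CPM in AKI replicates 1 to 4, at 148, 124, 126 and 103 CPM in UC and at 71.1, 80.2, 113 and 54.6 CPM in pFUS_UC. Every UC library exceeds every AKI library, and pFUS_UC lies between and overlaps both. Bax rose in UC by a log2 fold change of 1.09 (SE 0.21, adjusted p = 0.000887), and stood at 0.44 (SE 0.20, adjusted p = 0.0966) in pFUS_UC.

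Bbc3, the gene of PUMA, which neutralises the anti-apoptotic BCL2 proteins, was at 24.1, 28.3, 10.8 and 25.1 CPM in AKI replicates 1 to 4, at 16.8, 12.2, 21.05 and 15.8 CPM in UC and at 12.9, 8.49, 12.6 and 4.73 CPM in pFUS_UC. AKI replicate 3 is the only AKI library inside the pFUS_UC range. Bbc3 fell in pFUS_UC (log2 fold change -1.18, SE 0.32, adjusted p = 0.0102) and was at -0.42 (SE 0.32, adjusted p = 0.290) in UC. Pmaip1, the gene of NOXA with a like function, averaged 16.2 ± 6.15 CPM in AKI, 21.9 ± 6.88 CPM in UC and 13.4 ± 2.84 CPM in pFUS_UC and passed in neither comparison. Pidd1, the scaffold of the caspase-2 activating complex, was at 7.70, 8.38, 4.23 and 7.57 CPM in AKI replicates 1 to 4, at 16.1, 14.7, 14.4 and 8.42 CPM in UC and at 7.48, 7.66, 13.1 and 5.91 CPM in pFUS_UC. Its lowest UC library lies just above its highest AKI library. Pidd1 rose in UC by 0.94 (SE 0.28, adjusted p = 0.0145) and stood at 0.30 (SE 0.28, adjusted p = 0.416) in pFUS_UC.

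Aen, Phlda3 and Trp53inp1 shared one arrangement of libraries, with AKI replicate 3 far below the other AKI libraries and pFUS_UC replicate 4 lowest of all 12. Aen, an exonuclease that takes part in DNA fragmentation, was at 70.5, 81.1, 26.6 and 75.5 CPM in AKI replicates 1 to 4, at 40.6, 34.5, 43.3 and 39.2 CPM in UC and at 38.7, 27.01, 20.5 and 12.7 CPM in pFUS_UC. Phlda3, a competitor of AKT for membrane lipids, was at 66.8, 94.9, 20.7 and 92.3 CPM in AKI replicates 1 to 4, at 52.3, 54.2, 72.6 and 43.5 CPM in UC and at 43.5, 22.7, 33.3 and 6.60 CPM in pFUS_UC. Trp53inp1, which promotes p53 phosphorylation and autophagy, was at 83.3, 82.04, 21.01 and 53.6 CPM in AKI replicates 1 to 4, at 42.2, 38.4, 38.7 and 34.8 CPM in UC and at 33.5, 29.3, 29.3 and 13.8 CPM in pFUS_UC. In all 3 the AKI and pFUS_UC ranges overlap through AKI replicate 3 alone. Against AKI, the log2 fold change in pFUS_UC was -1.36 (SE 0.33, adjusted p = 0.00570) for Aen, -1.37 (SE 0.49, adjusted p = 0.0364) for Phlda3 and -1.18 (SE 0.35, adjusted p = 0.0154) for Trp53inp1. The Phlda3 call was lost with the replicate block (adjusted p = 0.0572), in a fit of only the 2 groups (adjusted p = 0.0577), on log2(FPKM + 0.1) in limma (adjusted p = 0.0509) and without any 1 of 6 libraries (AKI replicates 1, 2 and 4, pFUS_UC replicates 2, 3 and 4; adjusted p up to 0.0938). In UC the 3 genes stood at -0.69, -0.30 and -0.64, none past the threshold.

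Zmat3, an RNA-binding zinc finger protein that acts on splicing downstream of p53, was at 53.6, 73.9, 36.1 and 71.6 CPM in AKI replicates 1 to 4, at 35.1, 25.4, 30.6 and 27.6 CPM in UC and at 33.6, 18.1, 22.7 and 14.9 CPM in pFUS_UC. Even AKI replicate 3 exceeds every UC and every pFUS_UC library. Zmat3 fell in UC (log2 fold change -0.99, SE 0.25, adjusted p = 0.00603) and in pFUS_UC (log2 fold change -1.40, SE 0.25, adjusted p = 0.000926). The remaining 5 genes passed in neither comparison. Fas, the death receptor for FasL, averaged 7.84 ± 2.77 CPM in AKI, 10.6 ± 1.59 CPM in UC and 9.54 ± 2.75 CPM in pFUS_UC. Tnfrsf10b, the TRAIL receptor, averaged 9.81 ± 4.08 CPM in AKI, 9.41 ± 2.83 CPM in UC and 5.19 ± 2.24 CPM in pFUS_UC, with a log2 fold change of -0.91 (SE 0.40, adjusted p = 0.0791) in pFUS_UC. Eda2r had the widest spread of the members in AKI and pFUS_UC: it was at 10.3, 16.4, 1.17 and 7.57 CPM in AKI replicates 1 to 4, at 5.73, 6.32, 7.09 and 2.21 CPM in UC and at 4.32, 1.49, 3.30 and 0.0984 CPM in pFUS_UC, and pFUS_UC replicate 4 held 2 counts, under the limit of 3 counts. Its log2 fold change in pFUS_UC was -1.92 (SE 0.77, adjusted p = 0.0569). Perp, a desmosomal membrane protein, averaged 86.5 ± 18.4 CPM in AKI, 86.6 ± 11.6 CPM in UC and 73.9 ± 9.23 CPM in pFUS_UC. Ei24, a membrane protein of the endoplasmic reticulum, averaged 190.2 ± 28.3 CPM in AKI, 169.8 ± 3.39 CPM in UC and 154 ± 17.6 CPM in pFUS_UC.

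The 8 genes of stress metabolism, redox and secretion included 3 whose calls held under every alternative tried. In UC 1 was higher (Fdxr) and 2 lower (Sesn2 and Pltp) than in AKI, and in pFUS_UC the same 3 genes were called in the same directions; this is 37.5% of the group in each comparison, against 48.4% and 44.0% of all tested genes, and the medians were 0.05 and -0.20. Fdxr, the ferredoxin reductase that feeds electrons to mitochondrial P450 enzymes, was at 20.2, 20.1, 17.2 and 21.1 CPM in AKI replicates 1 to 4, at 41.9, 58.3, 38.7 and 41.3 CPM in UC and at 34.9, 47.6, 62.7 and 43.1 CPM in pFUS_UC. All 8 libraries of the cell-treated groups exceed all AKI libraries. Fdxr rose by a log2 fold change of 1.19 (SE 0.18, adjusted p = 0.000169) in UC and of 1.26 (SE 0.18, adjusted p = 0.000185) in pFUS_UC. Beside this mitochondrial protein, the share of mitochondrially encoded transcripts was also higher in both groups, as given above. With those transcripts removed from the counts, the log2 fold change of Fdxr was 1.18 in UC and 1.24 in pFUS_UC. That removal changes little but the library totals and their scaling, so it does not address mitochondrial content. The part of mitochondrial content in the Fdxr values was not tested.

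Sesn2, a stress-induced inhibitor of mTORC1, was at 150.0, 179, 143 and 196 CPM in AKI replicates 1 to 4, at 115, 100.03, 98.9 and 109 CPM in UC and at 105, 92.8, 107 and 67.5 CPM in pFUS_UC. Every AKI library exceeds every other library. Sesn2 fell by 0.66 (SE 0.15, adjusted p = 0.00276) in UC and by 0.84 (SE 0.15, adjusted p = 0.000741) in pFUS_UC on the log2 scale. Its relative Sesn1 averaged 15.6 ± 1.24 CPM in AKI, 16.3 ± 1.10 CPM in UC and 16.9 ± 1.48 CPM in pFUS_UC and passed in neither. Pltp, which transfers phospholipids between lipoproteins, was at 7.36, 11.3, 16.3 and 11.8 CPM in AKI replicates 1 to 4, at 5.98, 3.07, 3.48 and 6.64 CPM in UC and at 4.15, 6.01, 5.61 and 7.19 CPM in pFUS_UC; it is the one called member that AKI replicate 3 held at the highest level. No UC or pFUS_UC library reaches the lowest AKI library. Pltp fell by 1.29 (SE 0.29, adjusted p = 0.00303) in UC and by 1.03 (SE 0.29, adjusted p = 0.0118) in pFUS_UC on the log2 scale.

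Gdf15 was at 95.7, 181, 63.96 and 224 CPM in AKI replicates 1 to 4, at 222, 139, 167 and 50.1 CPM in UC and at 106, 44.6, 54.3 and 9.50 CPM in pFUS_UC. The groups overlap widely, and pFUS_UC replicate 4 is again the lowest library. The log2 fold change was 0.04 (SE 0.58, adjusted p = 0.965) in UC and -1.39 (SE 0.60, adjusted p = 0.0731) in pFUS_UC against AKI. Ddit4l, an mTORC1 inhibitor, averaged 23.6 ± 4.68 CPM in AKI, 29.6 ± 7.54 CPM in UC and 22.5 ± 7.15 CPM in pFUS_UC. Rrm2b, the p53-induced small subunit of ribonucleotide reductase, averaged 18.9 ± 4.28 CPM in AKI, 14.6 ± 2.45 CPM in UC and 14.98 ± 3.02 CPM in pFUS_UC. Dcxr averaged 330.3 ± 32.6 CPM in AKI, 429 ± 97.4 CPM in UC and 409 ± 100.06 CPM in pFUS_UC. None of these 3 passed.

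The comparison of pFUS_UC with UC asks what ultrasound added to the cells. With edgeR 0 of the 34 members and 0% of all tested genes were called; DESeq2 called 45 genes, none of them a member. At an unadjusted p under 0.05 there were 11 members and 7.92% of all tested genes, and all 11 members were lower in pFUS_UC: Mdm2, Cdkn1a, Plk3, Ckap2, Psrc1, Bax, Bbc3, Pmaip1, Pidd1, Phlda3 and Gdf15. The median log2 fold change of the members was -0.45, beside 0.00 over all tested genes, and 29 of the 34 were negative. Cdkn1a stood at -1.60 (SE 0.62, adjusted p = 0.598), with a 95% interval from -2.94 to -0.26. Bax stood at -0.65 (SE 0.20, adjusted p = 0.591), with an interval from -1.09 to -0.21. Fdxr, at 0.06 (SE 0.17, adjusted p = 0.951), had an interval from -0.30 to 0.43. CPM ranges did not overlap for 1 member, Trp53inp1, whose highest pFUS_UC library (33.5 CPM) lies below its lowest UC library (34.8 CPM), against 3.90% of all tested genes. The count of 11 moved to between 2 and 15 when 1 library was left out, being 2 without UC replicate 1, 4 without UC replicate 3, 5 without pFUS_UC replicate 4 and 7 without pFUS_UC replicate 2. Over all tested genes the number at this level moved as well, from 1342 to 752, 981, 795 and 1193 in these 4 fits. Havcr1, Lcn2 and Krt20 were measured beside these members: the 6 markers of tubular injury summed to 370 to 875 CPM in UC and to 326 to 569 CPM in pFUS_UC, and 0 of 6 were called. Their median log2 fold change was -1.14, with 0 of 6 above 0 and 3 of 6 at an unadjusted p under 0.05. Markers of other cells had positive medians in this comparison, none of them called: 2.47 for 4 adipocyte markers (9.15 to 43.6 CPM in UC, 55.1 to 114 CPM in pFUS_UC, 4 of 4 at an unadjusted p under 0.05), 0.49 for podocyte, 0.42 for endothelial and 0.65 for fibroblast markers, with 6 of 6 log2 fold changes above 0 in each of the last 3. The part of tubular injury or of other cells in the members' values was not tested.

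Promoter sites and calls can be set side by side as a description. Of the 9 members lower in pFUS_UC than in AKI, 7 had a promoter entry, and 3 of these held the 10-base site (Aen, Cdkn1a and Ckap2). Of the 7 members higher in UC than in AKI, Bax and Gadd45a held it. Members with a site are thus found among the higher, the lower and the uncalled genes.

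Further p53 targets outside the 34 were examined as a list of 31 genes, of which 30 were tested. In UC against AKI, 2 were higher and 11 lower, with a median of -0.45; in pFUS_UC against AKI 2 were higher and 12 lower, with a median of -0.57. These are 43.3% and 46.7% of the list, close to the 48.4% and 44.0% called among all tested genes in either direction. The directions of the list were uneven, while those of all tested genes were not. Of all tested genes 24.1% were higher and 24.3% lower in UC, and 21.9% higher and 22.1% lower in pFUS_UC. The 2 higher genes were the same in both comparisons. Rps27l, a ribosomal protein relative induced by p53, was at 118, 134, 69.5 and 129.7 CPM in AKI replicates 1 to 4, at 271, 296, 244 and 180.5 CPM in UC and at 174, 207, 238 and 150.2 CPM in pFUS_UC. It rose by a log2 fold change of 1.14 (SE 0.21, adjusted p = 0.000880) in UC, with all UC libraries above all AKI libraries. Ddb2, the damage-recognition subunit of nucleotide excision repair, rose by 1.16 (SE 0.28, adjusted p = 0.00452) in pFUS_UC. Lower in both were Lpin1, a phosphatidate phosphatase (log2 fold change -1.09, SE 0.18, adjusted p = 0.000344 in UC), Pml, the organiser of nuclear bodies (log2 fold change -0.72, SE 0.12, adjusted p = 0.000354 in UC), and Sulf2, an extracellular sulfatase (log2 fold change -1.56, SE 0.24, adjusted p = 0.000325 in pFUS_UC). In pFUS_UC against UC 0 of 30 were called by edgeR, with 3 at an unadjusted p under 0.05 and a median of -0.05.

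Upstream of p53, 20 of 21 kinases, cofactors and relatives were tested; 3 were higher and 5 lower in UC, and 1 was higher and 7 lower in pFUS_UC, than in AKI. That is 40% in each comparison, against 48.4% and 44.0% of all tested genes in either direction. Of all tested genes 24.1% were higher and 24.3% lower in UC, and 21.9% higher and 22.1% lower in pFUS_UC. Hipk2, a kinase that phosphorylates p53 in its apoptotic response, was at 64.1, 72.01, 84.6 and 69.6 CPM in AKI replicates 1 to 4, at 12.02, 12.04, 13.9 and 10.9 CPM in UC and at 15.7, 12.6, 11.3 and 12.2 CPM in pFUS_UC. The groups are far apart, and the log2 fold change was -2.57 (SE 0.13, adjusted p = 5.25e-07) in UC and -2.49 (SE 0.13, adjusted p = 7.37e-07) in pFUS_UC. Ep300, an acetyltransferase and coactivator of p53, fell by 0.88 (SE 0.12, adjusted p = 9.56e-05) and by 0.78 (SE 0.12, adjusted p = 0.000293) on the log2 scale. Daxx, a histone chaperone that binds p53 and Mdm2, fell by 0.49 (SE 0.13, adjusted p = 0.00624) and by 0.58 (SE 0.13, adjusted p = 0.00276). Atm, a further kinase of this list, fell by 1.17 (SE 0.33, adjusted p = 0.0110) in UC and by 1.11 (SE 0.33, adjusted p = 0.0160) in pFUS_UC. The higher genes were Chek1, a checkpoint kinase (log2 fold change 1.17, SE 0.36, adjusted p = 0.0155 in UC), Trp63, a p53 relative (log2 fold change 1.49, SE 0.52, adjusted p = 0.0313 in UC), and the deacetylase gene Sirt1, at 0.47 (SE 0.17, adjusted p = 0.0330) in UC and 0.52 (SE 0.17, adjusted p = 0.0240) in pFUS_UC. Trp63 was at 1.49, 0.661, 0.670 and 0.445 CPM in AKI replicates 1 to 4, at 1.18, 0.921, 5.06 and 1.97 CPM in UC and at 1.47, 1.27, 1.54 and 2.26 CPM in pFUS_UC. Its UC and AKI ranges overlap, and UC replicate 3 was the highest. The endothelial, podocyte and fibroblast markers given above were lower in the same comparisons. Their part in the values of these kinases, cofactors and relatives was not tested. Of the cell cycle genes that p21 represses through the DREAM complex, 21 of 22 were tested, and 14.3% and 19.0% of these were called in UC and in pFUS_UC against AKI. Birc5 and Kif23, both of cytokinesis, were higher in both comparisons, Birc5 by 1.76 (SE 0.30, adjusted p = 0.000431) in UC, where its mean level was 3.19 ± 0.994 CPM against 0.937 ± 0.217 CPM in AKI (SD, n = 4). Ect2 was lower in both, Nek2 was lower in pFUS_UC, and the other 17 were called in neither.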

How the data were processed

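Kidney RNA of 12 samples, 4 in each of 3 groups, was sequenced in bulk. The authors deposited a table of raw counts per gene and a table of FPKM for the same genes; per the submitters' processing notes HTSeq, DESeq2 and the build GRCm39 (mm39) were used, with no versions or roles, and the aligner is not given in the sources used here. Per the file headers, gene names, coordinates and lengths come with the deposited counts. The deposited FPKM equal counts divided by gene length and by 1 total per library that differs from its summed counts (15.98 to 23.4 M, mega), so the authors had rescaled it; FPKM were used for levels per length and for 2 alternatives only.

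Counts were tested with edgeR 4.0.16 in R 4.3.3: filterByExpr (minimum count 10, minimum total 15), TMM scaling, 1 quasi-likelihood fit over all 12 samples, and Benjamini-Hochberg adjustment over 16947 genes, with a threshold of 0.05. Single-gene log2 fold changes, standard errors (SE, the log2 fold change over the square root of F), adjusted p-values and 95% intervals are from this fit, and the procedure was tested on simulated data. Groups follow the sample titles. Library shares were compared by 2-sided exact permutation tests. Limits from counts cover counting error only.

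The 34 members and all gene lists were chosen with earlier results of these data known. Full values are given for Trp53, Mdm2, Cdkn1a and every member called in at least 1 comparison. Of the further targets, kinases and cofactors, not every called gene with a small p is named, and only Rps27l, Hipk2 and Trp63 are given by library. Eda2r and Gdf15 in full, Ddb2, Chek1, Trp63, Sirt1 and the injury markers by library were chosen after their values were seen. Alternatives were DESeq2 1.42.0, its size factors, omission of the filter, a minimum of 1 CPM in 4 libraries, models holding 2 groups alone, a replicate block, leaving out each library, an offset for gene length, removal of mitochondrially encoded genes, and limma 3.58.1 on log2(FPKM + 1) and log2(FPKM + 0.1). Promoters were scanned in RefSeq sequences of GRCm38.p6, and no coordinate was carried between builds.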

Additional observations from a re-analysis of the deposited data

Results flagged for a closer look

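In 2 of 102 groups of 4 values examined (34 members in 3 groups), 1 library stood apart from the other 3 beyond Dixon's 95% critical value; chance alone gives about 1 such case in 20 groups. Sesn1, an mTORC1 inhibitor, was at 13.8 CPM in AKI replicate 4, below the other AKI libraries at 16.2 to 16.4 CPM. Fdxr, the mitochondrial ferredoxin reductase, was at 58.3 CPM in UC replicate 2, above the other UC libraries at 38.7 to 41.9 CPM. Neither library was AKI replicate 3 or pFUS_UC replicate 4, the libraries that were lowest of their group for most members.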

How the results depend on the processing

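Of the 22 calls of single members against AKI, 15 held under every alternative tried, 7 were lost under at least 1 (Cdkn1a, Ckap2 and Phlda3 in pFUS_UC, and Gadd45a, Plk3, Ppm1d and Sertad1 in UC), and 0 changed sign. The number of members lower in pFUS_UC than in AKI ranged from 6 to 17 when 1 library was left out, with 17 without AKI replicate 3, and was 12 with DESeq2, 13 without the filter and 11 with the gene length offset. Of all tested genes, 17.8% to 22.1% were lower in the fits that left out 1 library. That share was 20.1% with DESeq2, 11.2% without the filter and 20.7% with the gene length offset. The cause was not tested. The near-zero log2 fold changes in UC against AKI changed sign: that of Trp53 was -0.0185 without the filter, -0.0128 on log2(FPKM + 1) and -0.0165 on log2(FPKM + 0.1), and ran from -0.18 to 0.12 when 1 library was left out, and that of Cdkn1a ran from -0.526 to 0.0853, with 0.00895 without UC replicate 4. The samples of one replicate number did not deviate together (correlations of -0.165 to 0.147 across genes, 2 of 12 pairs best with their own number), so the numbers were not taken as pairs; with the replicate block 7 members were higher and 3 lower in UC than in AKI, 2 higher and 8 lower in pFUS_UC than in AKI, and 0 differed between pFUS_UC and UC. In pFUS_UC against UC no member was called in any fit, while over all genes the number called was 0 in the reported fit, 45 with DESeq2, 13 without the filter, 2 with the replicate block and 1 without pFUS_UC replicate 4. Depth limits only the lowest members: Eda2r was represented by 2 counts in pFUS_UC replicate 4.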
